A study of Mus musculus with 22 samples.

Results

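The effect of whisker exploration on brain endothelial transcripts was set against the effect of DREADD activation of neurons, gene by gene, in 14 of the 22 libraries of the series. The comparison covered the 13587 of 37991 listed genes with at least 1 CPM (a gene's reads scaled to a common library size) in 3 or more of these 14 libraries. The 283 genes that just entered, with 1 CPM in exactly 3 libraries, had a median mean level of 0.745 CPM, and the 400 that just missed, with 1 CPM in 2 libraries, had 0.601 CPM. RNA came from cells sorted for CD31, a surface protein of endothelium. The Plus Whisker group (3 libraries) came from C57BL/6 wild-type mice that explored an enriched cage in darkness with their whiskers. The Minus Whisker group (3 libraries) came from mice of the same strain that had no whiskers and stayed in an empty cage, so whiskers and cage differed together. Each whisker library pooled 5 pairs of barrel cortices, the region of cortex that reads the whiskers. The Activating group (4 libraries) and the Activating Control group (4 libraries) came from cortex and hippocampus 3 hours after the drug CNO, which both groups received. Both carry the genotype label CamKIIa-tTA; TRE-hM3Dq on C57BL/6. In such mice the CamKIIa promoter, active in excitatory forebrain neurons, drives hM3Dq, a designer receptor that excites a neuron when CNO binds it. The series text calls the controls littermates without the receptor, which their genotype label does not show.

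The experiments shared no library, and they differed in tissue, pooling, genotype, stimulus and depth, so any difference between their effects cannot be told apart from these. Libraries of the whisker experiment held 44187482 to 57673270 reads in genes, and those of the activation experiment 18387666 to 25163689. The summed CPM of 14 endothelial marker genes was 30140 to 33290 in Plus Whisker, 32660 to 35350 in Minus Whisker, 32560 to 36380 in Activating and 35060 to 40700 in Activating Control libraries. Marker genes of other cells stood apart in single libraries. Minus Whisker 2 and 3 held more astrocyte RNA than every other library, and Minus Whisker 2 the most smooth muscle RNA. For Mcam, Rnd3, Lcat, Rassf2, Sox2, Kif1a, Fads2 and the astrocyte and smooth muscle marker lists the difference is also given without them.

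Endothelial cells line brain vessels and form the blood-brain barrier, through tight junctions, a low rate of vesicle transport, efflux pumps and selective carriers. Active neurons send signals that widen nearby vessels and raise blood flow, and endothelial cells sense these signals, the flow and the stretch of the vessel wall. Their transcripts therefore offer a readout that either kind of neural activity, evoked by touch or by a designer receptor, could move.

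The effects are log2 differences on the log2(CPM + 1) scale, given ± SE from limma, with Benjamini-Hochberg adjusted p-values over all 13587 genes. The whisker effect is Plus Whisker minus Minus Whisker, the activation effect is Activating minus Activating Control, and the difference of effects is the whisker effect minus the activation effect. The average effect is the mean of both. A gene was called at an adjusted p under 0.05. Libraries that shared a replicate number within an experiment deviated together, so each result was also fitted with the number as a block, termed the paired fit.

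Whisker exploration and neuronal activation leaned the same way in most endothelial genes with a called response, and the limma fits with and without the block called at most 1 gene as responding differently. Actin-linked and membrane-bending genes (Fyn, Anxa2, Tpm4, Dysf), the flow-linked channel Trpv4 and the anticoagulant receptor Thbd rose for the average of both experiments. The monoamine-forming enzyme Ddc, the BMP co-receptor Tgfbr3 and von Willebrand factor (Vwf) fell for the average. The single gene called for the difference was Cnn2, an actin-binding calponin that rose with activation and had a whisker effect near 0. Only the fit with the block called it, and TMM scaling in that fit lost the call. Akr1e1, an aldo-keto reductase, fell with activation and had a whisker effect near 0. Its difference did not pass in the limma fit with the block or in that without it.

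No gene passed for the difference of effects without the block (0 of 13587, 0%), where the smallest adjusted p was 0.375 and 562 genes had an unadjusted p under 0.05 (4.14%). The paired fit called 1 gene (0.00736%) and had 1203 genes at an unadjusted p under 0.05. On whole reads recovered from the CPM values, edgeR called 1 gene without the block and 0 with it, and DESeq2 called 15, 6 of them higher and 9 lower. The whisker effect alone had 0 called genes without the block (0%), with 1511 at an unadjusted p under 0.05, and edgeR called 0 and DESeq2 257. The paired fit called 44 genes for the whisker effect (0.324%), 18 higher (0.132%) and 26 lower (0.191%). The activation effect had 116 called genes (0.854%), 63 higher (0.464%) and 53 lower (0.39%), and 803 in the paired fit (5.91%), 425 higher (3.13%) and 378 lower (2.78%). The average effect had 377 called genes (2.77%), 181 higher (1.33%) and 196 lower (1.44%), and 1678 in the paired fit (12.4%), 637 higher (4.69%) and 1041 lower (7.66%). These splits moved with scaling: RLE scaling gave 270 higher and 191 lower without the block, and TMM scaling gave 855 higher and 824 lower with it.

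Genes called for activation leaned the same way in the whisker experiment. Of the 116, 109 (94%) had a whisker effect of the same sign, against 67.3% of all tested genes. Of the 63 that rose with activation, 58 had a whisker effect above 0, with a median of 0.34 on the log2 scale for whisker and 0.65 for activation. Of the 53 that fell, 51 had a whisker effect below 0, with medians of -0.25 for whisker and -0.63 for activation. The activation medians come from genes chosen by that effect and the whisker medians do not, so the sizes are not compared. Over all tested genes 35.6% had a whisker effect above 0 and 48.7% an activation effect above 0, around medians of -0.07 for whisker and -0.01 for activation. The reverse choice gave the same lean: of the 44 genes called for the whisker effect in the paired fit, 38 had an activation effect of the same sign, among them 18 of 18 that rose and 20 of 26 that fell. Called in both experiments by the paired fit were 23 genes, 52.3% of the whisker genes and 2.86% of the activation genes, and 23 of the 23 moved one way in both. Across the 13587 genes the effects had a Pearson correlation of 0.296 and a Spearman correlation of 0.399. Among the 8809 genes with a mean of at least 10 CPM the Pearson correlation was 0.515. These describe genes of the same 14 libraries, which are not independent of each other.

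**Figure D1:**
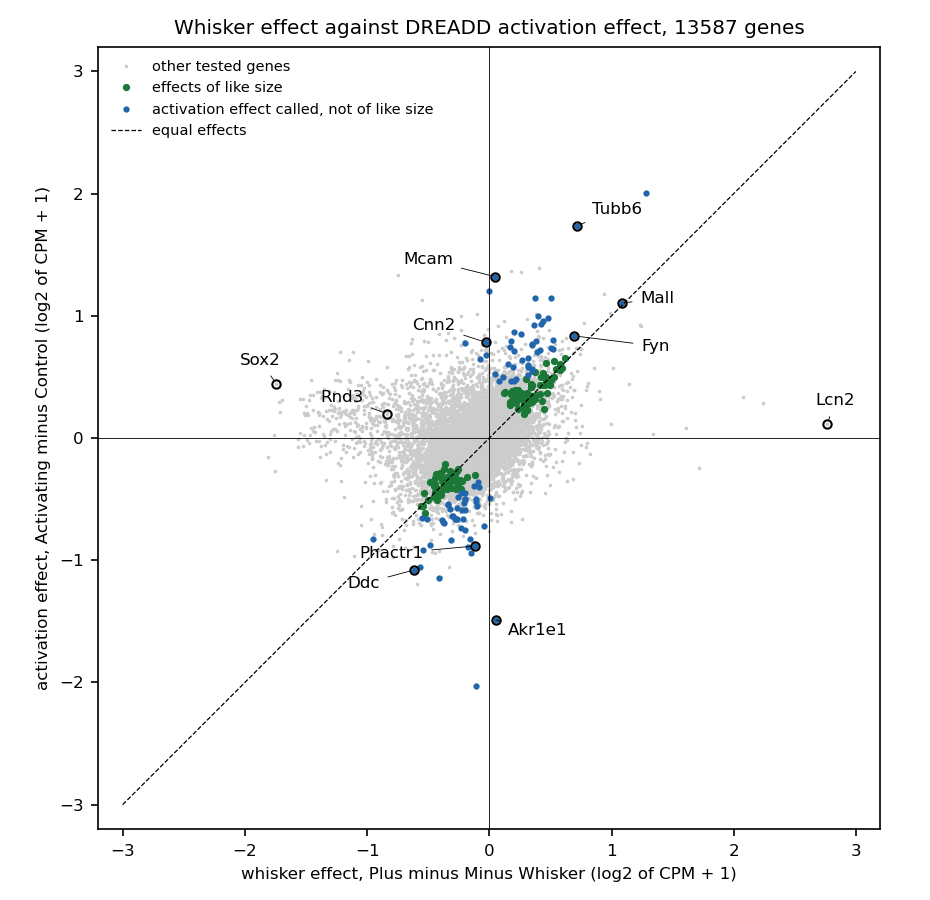
Each point is 1 of 13587 genes, with its whisker effect on the x axis and its activation effect on the y axis. Both are log2 differences of CPM + 1. Green points have effects of like size, among them 25 genes called for activation. Blue points are the other genes called for activation, and the dashed line marks equal effects. The 116 genes called for activation lie mostly in the lower left and upper right, and Akr1e1, Cnn2 and Mcam lie near 0 on the x axis.

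A direct statement of equal size needed a narrow interval. A gene was counted as of like size when its average effect was called and the 95% interval of its difference lay within 0.5 on the log2 scale on either side of 0. There were 146 such genes (1.07%), 85 higher (0.626%) and 61 lower (0.449%), and 934 in the paired fit (6.87%), 419 higher (3.08%) and 515 lower (3.79%). With RLE scaling 136 were higher and 58 lower, and with TMM scaling in the paired fit 572 were higher and 392 lower. All 146 were among those of the paired fit. Where an average effect is smaller than the bound of 0.5, the bound admits a difference as large as the effect itself. A bound of 0.3 left 17 genes of like size. Of the 146, 113 (77.4%) had treated libraries that lay beyond all control libraries in both experiments, in the same direction, against 357 of all tested genes (2.63%). The 146 were chosen in these same libraries by a called average and a narrow interval. That choice favours groups that lie apart, so the share describes them and is no separate support. Only 28.1% of tested genes had an interval that narrow in the unblocked fit and 45.1% in the paired fit, so for most genes neither equality nor a difference was shown at this number of libraries. The count ranged from 20 to 195 when 1 library was left out, and Plus Whisker 2 gave the lowest. With Minus Whisker 2 and 3 both left out, 1 Minus Whisker library stays, and the counts were 0 of like size and 0 for the average, with 1312 genes at an unadjusted p under 0.05 for the average.

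Among the genes that rose for the average with effects of like size, the 8 with the largest average effect are given first. Trpv4 (ENSMUSG00000014158), a calcium channel opened by stretch and flow, had 102, 125 and 125 CPM in the Plus Whisker libraries, against 68.1, 83.1 and 80.01 CPM in the Minus Whisker libraries. It had 138, 122, 132 and 149 CPM in the Activating libraries, against 96.4, 82.7, 80.6 and 105 CPM in the Activating Control libraries. The groups did not overlap in either experiment. Its whisker effect was 0.60 ± 0.12 and its activation effect 0.57 ± 0.11, and the difference was 0.03 ± 0.16 with an interval of -0.32 to 0.37 (average adjusted p = 0.00437).

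Schip1 (ENSMUSG00000027777), a partner of the membrane-linked tumour suppressor merlin, had 40.99, 44.9 and 38.9 CPM in the Plus Whisker libraries, against 28.3, 25.5 and 26.2 CPM in the Minus Whisker libraries. It had 50.7, 56.8, 54.9 and 61.9 CPM in the Activating libraries, against 31.98, 43.02, 29.8 and 37.2 CPM in the Activating Control libraries. Both groups of treated libraries lay above their controls, with a whisker effect of 0.62, an activation effect of 0.66 and an interval of the difference of -0.40 to 0.33. Dysf, which encodes the membrane repair protein dysferlin, had 84.7, 99.2 and 96.99 CPM in the Plus Whisker libraries, against 58.7, 60.97 and 67.4 CPM in the Minus Whisker libraries. In the other experiment it had 139, 150.5, 132 and 160.2 CPM in the Activating libraries, against 98.1, 112, 91.6 and 81.8 CPM in the Activating Control libraries. Neither pair of groups overlapped, and the effects were 0.58 for whisker and 0.60 for activation.

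Thbd (ENSMUSG00000074743), thrombomodulin, the endothelial receptor that turns thrombin to an anticoagulant role, had 749.9, 935 and 795 CPM in the Plus Whisker libraries, against 567, 585 and 501 CPM in the Minus Whisker libraries. It had 1089, 949, 1296 and 1179 CPM in the Activating libraries, against 681, 783, 693 and 906 CPM in the Activating Control libraries. The groups did not overlap, and the average effect was 0.57 ± 0.09 (adjusted p = 0.0103). Tpm4, a tropomyosin of actin filaments, had an average effect of 0.58 ± 0.08, and Adam15, a membrane metalloprotease, one of 0.54 ± 0.08. Clic4, an intracellular chloride channel protein linked to vessel lumen formation, had 0.51 ± 0.09, and Slc25a24, a mitochondrial ATP carrier, 0.49 ± 0.08. The groups of these 4 genes did not overlap in either experiment, and the largest of their differences of effects in size was -0.15, that of Adam15.

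Among genes that fell for the average with effects of like size, the 8 with the largest average effect held a filamin partner, a matrix protein and metabolic enzymes. Tmem98 (ENSMUSG00000035413), a transmembrane protein, had 51.2, 50.6 and 40.1 CPM in the Plus Whisker libraries, against 74.6, 68.2 and 62.6 CPM in the Minus Whisker libraries. It had 52.5, 40.5, 57.7 and 48.99 CPM in the Activating libraries, against 92.6, 72.3, 74.99 and 67.2 CPM in the Activating Control libraries. Treated libraries lay below all controls in both experiments, with effects of -0.53 for whisker and -0.61 for activation (average adjusted p = 0.0111). Filip1, a filamin-binding protein, had 69.3, 68.1 and 71.7 CPM in the Plus Whisker libraries, against 91.9, 89.7 and 101 CPM in the Minus Whisker libraries. It had 49.7, 43.1, 55.9 and 54.5 CPM in the Activating libraries, against 75.3, 72.5, 81.6 and 61.9 CPM in the Activating Control libraries. Its groups did not overlap either, and its average effect was -0.47 ± 0.08. Arsb, the lysosomal arylsulfatase B, had an average effect of -0.50 ± 0.09, Egflam, the matrix protein pikachurin, -0.49 ± 0.10, and Pcx, pyruvate carboxylase, -0.44 ± 0.09. Enpp5 (-0.56 ± 0.11), Bahcc1 (-0.55 ± 0.11) and Ap3m2, a subunit of the AP-3 vesicle adaptor (-0.47 ± 0.10), completed the 8. Of the 16 genes named for like size, 11 kept the call of the average in each refit that left out 1 library. Egflam lost it in 1, Bahcc1 in 2, Pcx in 3, Enpp5 in 5 and Ap3m2 in 8 of 14 such refits, with adjusted p up to 0.0952.

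Mall and Ddc, chosen after their values were seen, had larger average effects. Mall (ENSMUSG00000027377), a membrane raft protein, had 70.5, 91.3 and 77.8 CPM in the Plus Whisker libraries, against 38.7, 42.03 and 30.8 CPM in the Minus Whisker libraries. It had 143, 124, 103 and 117 CPM in the Activating libraries, against 47.9, 69.7, 44.7 and 64.5 CPM in the Activating Control libraries. The groups lay apart, with effects of 1.09 ± 0.17 for whisker and 1.10 ± 0.15 for activation (average adjusted p = 0.00148), and the interval of its difference, -0.51 to 0.48, reached just past the bound. Ddc (ENSMUSG00000020182), the decarboxylase that forms dopamine and serotonin from their precursors, had 195, 188 and 199 CPM in the Plus Whisker libraries, against 273, 314 and 305 CPM in the Minus Whisker libraries. It had 122, 78.2, 141 and 83.1 CPM in the Activating libraries, against 218, 175, 275 and 216 CPM in the Activating Control libraries. Both treated groups lay below all controls, with effects of -0.61 ± 0.19 for whisker and -1.08 ± 0.17 for activation and a difference of 0.47 ± 0.26 that did not pass (adjusted p = 1.00).

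**Figure D2:**
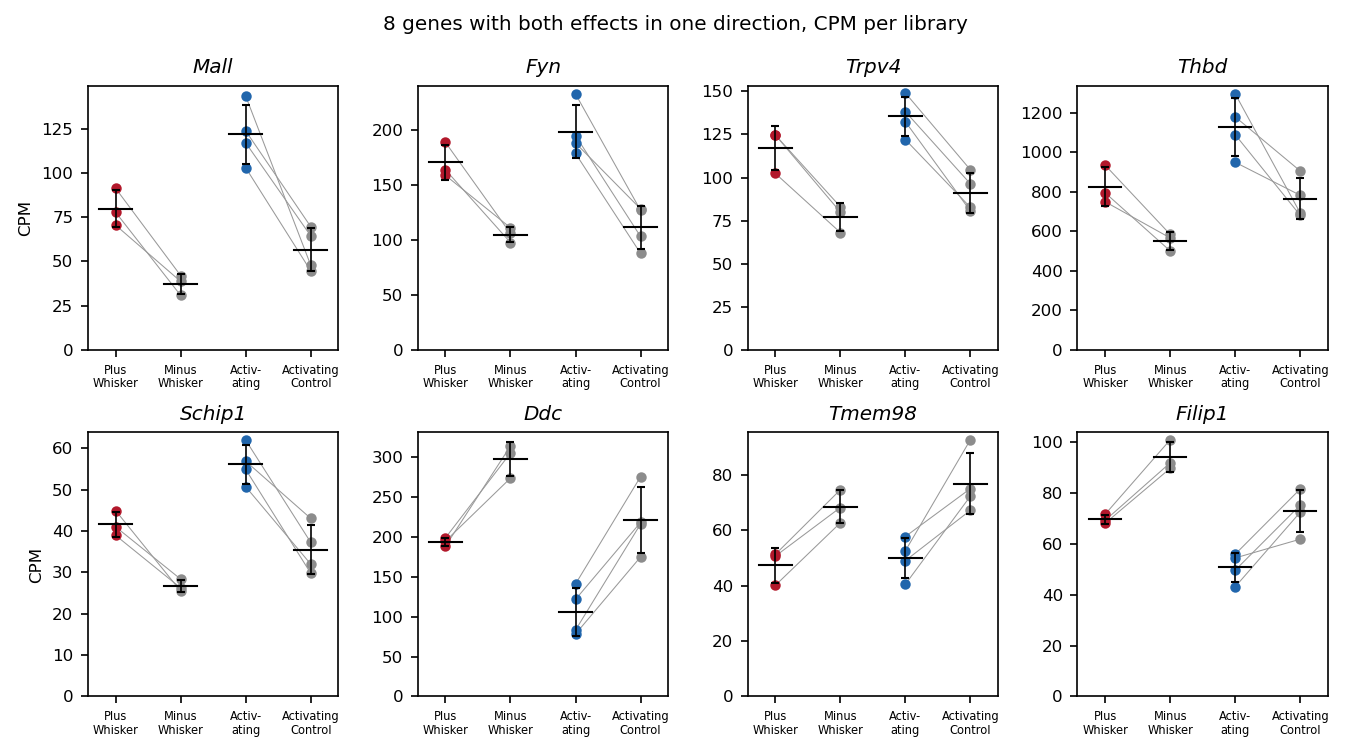
CPM per library on the y axis for 8 genes in Plus Whisker (red), Minus Whisker (grey), Activating (blue) and Activating Control (grey) libraries; thin lines join libraries of the same replicate number and bars give mean and SD. Mall, Fyn, Trpv4, Thbd and Schip1 are higher and Ddc, Tmem98 and Filip1 lower in every treated library than in every control of the same experiment.

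On the activation side of the difference, the genes with the smallest p were called for activation. Without the block 0 of 13587 genes were called for the whisker effect, so the lack of a whisker call does not set these genes apart. Akr1e1 (ENSMUSG00000045410), an aldo-keto reductase of sugar metabolism, had 14.4, 15.1 and 13.9 CPM in the Plus Whisker libraries, against 12.03, 15.2 and 14.6 CPM in the Minus Whisker libraries. It had 3.55, 3.3, 3.88 and 2.81 CPM in the Activating libraries, against 15.4, 9.82, 8.15 and 12.9 CPM in the Activating Control libraries. The whisker groups overlapped, while every Activating library lay below every control. Its whisker effect was 0.05 ± 0.20 and its activation effect -1.49 ± 0.17 (adjusted p = 0.00132), so the difference of effects was 1.54 ± 0.26 with an interval of 0.99 to 2.10 (adjusted p = 0.375, and 0.316 in the paired fit). The difference did pass with edgeR (adjusted p = 0.0447), with DESeq2 (5.58e-08), in the fit of all 22 libraries (0.00998) and without Minus Whisker 1 (0.0228).

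Cnn2 (ENSMUSG00000004665), calponin 2, an actin-binding protein of migrating and contracting cells, had 126, 158 and 127 CPM in the Plus Whisker libraries, against 137, 151 and 130.2 CPM in the Minus Whisker libraries. It had 252, 174, 229 and 218 CPM in the Activating libraries, against 148, 105, 129.9 and 121 CPM in the Activating Control libraries. The whisker groups overlapped, and Activating libraries lay above all controls. The whisker effect was -0.03 ± 0.15, the activation effect 0.78 ± 0.13 (adjusted p = 0.0111) and the difference -0.81 ± 0.19, with an interval of -1.22 to -0.40. Its adjusted p was 1.00 without the block, 0.0204 in the paired fit and 0.0434 with DESeq2. The call was lost in the paired fit with TMM scaling and with edgeR with the block, and it held in 2 of 7 paired fits that left out 1 pair of libraries.

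The promoter of Cnn2 (RefSeq, GRCm38.p6, chr10:79988350-79988649, plus strand, 250 bases before to 50 after the start) is shown because Cnn2 is the gene called for the difference in the paired fit. The capitals mark a CArG box, the site read by serum response factor, a regulator of actin genes; the box was searched on both strands and is found in 1.64% of 32544 promoters of this length.
Cnn2: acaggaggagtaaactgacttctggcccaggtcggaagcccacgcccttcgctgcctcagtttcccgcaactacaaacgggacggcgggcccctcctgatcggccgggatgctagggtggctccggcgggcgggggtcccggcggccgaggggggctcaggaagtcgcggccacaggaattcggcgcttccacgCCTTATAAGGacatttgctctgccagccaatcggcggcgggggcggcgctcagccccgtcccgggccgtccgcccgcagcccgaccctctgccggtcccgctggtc
Of the 10 genes named for the difference, Cnn2 and Rnd3 held such a box, and of 13 like-size genes with a promoter in the table Schip1 and Filip1 did. A match says that the letters are present and does not show a bound site.

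Phactr1 (ENSMUSG00000054728), a regulator of actin and of protein phosphatase 1, had 104, 111 and 123 CPM in the Plus Whisker libraries, against 111, 129.7 and 124 CPM in the Minus Whisker libraries. It had 39.2, 37.98, 42.8 and 33.98 CPM in the Activating libraries, against 70.2, 64.97, 70.8 and 81.4 CPM in the Activating Control libraries. The whisker groups overlapped, Activating libraries lay below all controls, and the difference was 0.77 ± 0.15 (adjusted p = 0.669). Megf6, a protein with EGF-like domains, had a whisker effect of -0.15 and an activation effect of -0.83. Ptpru, a receptor tyrosine phosphatase, had -0.05 for whisker and -0.72 for activation. Tfdp2, a partner of E2F cell-cycle factors, had -0.10 for whisker and -0.56 for activation. All of these activation effects were called (highest adjusted p 0.0159), and none of the 4 differences passed in either limma fit (adjusted p without the block of 0.669 for Phactr1 and 1.00 for the other genes). All 4 differences passed with DESeq2, with an adjusted p of 0.00157 for Phactr1, 0.0164 for Megf6, 0.0389 for Ptpru and 0.0389 for Tfdp2, and that of Phactr1 also passed without Minus Whisker 1 (0.0427). Aldh18a1, an enzyme of proline synthesis, had a whisker effect of -0.20 ± 0.18 and rose with activation (0.78 ± 0.16, adjusted p = 0.0324).

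Rab6b (ENSMUSG00000032549), a GTPase of Golgi transport known from neurons, was chosen after its values were seen, for the lowest called activation effect. It had 32.3, 49.4 and 45.02 CPM in the Plus Whisker libraries, against 46.9, 44.7 and 43.4 CPM in the Minus Whisker libraries. It had 6.07, 11.6, 6.76 and 3.35 CPM in the Activating libraries, against 51.4, 29.98, 8.24 and 54.5 CPM in the Activating Control libraries. The groups overlapped in both experiments, and Activating Control 3 lay among the levels of the Activating libraries. Its whisker effect was -0.11 ± 0.51, its activation effect -2.03 ± 0.44 (adjusted p = 0.0468) and its difference 1.92 ± 0.68 (adjusted p = 1.00, and 0.404 in the paired fit).

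Mcam and Igf1r, of the angiogenesis list, were also called for activation. Mcam (ENSMUSG00000032135), the adhesion molecule CD146, had 52.6, 86.8 and 67.6 CPM in the Plus Whisker libraries, against 39.6, 121 and 58.5 CPM in the Minus Whisker libraries. It had 183, 169.6, 128 and 209 CPM in the Activating libraries, against 83.2, 77.8, 49.1 and 64.4 CPM in the Activating Control libraries. In the whisker experiment Minus Whisker 2 was the highest library, and the Activating libraries lay above all controls. The difference of -1.28 ± 0.42 did not pass (adjusted p = 1.00) and was -0.84 without Minus Whisker 2 and -0.56 with Minus Whisker 2 and 3 both left out. It passed without Minus Whisker 1 (-1.63, adjusted p = 0.0485). Igf1r, the receptor for insulin-like growth factor 1, had 455, 524 and 653 CPM in the Plus Whisker libraries, against 609.8, 508 and 726 CPM in the Minus Whisker libraries. It had 277, 248, 284 and 241 CPM in the Activating libraries, against 364, 471, 559 and 579 CPM in the Activating Control libraries. The whisker groups overlapped, and the Activating libraries lay below all controls. Its activation effect of -0.89 ± 0.15 was called (adjusted p = 0.0159), and its difference of 0.71 ± 0.23 did not pass (adjusted p = 1.00).

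On the whisker side, no difference passed in either limma fit, and that of Rnd3 passed with DESeq2 (adjusted p = 0.0389). Without Minus Whisker 1 those of Rnd3 (adjusted p = 0.0466), Lcat (0.0168) and Rassf2 (0.0265) did. Rnd3 (ENSMUSG00000017144), a protein that loosens actin fibres, had 5.595, 5.398 and 3.93 CPM in the Plus Whisker libraries, against 8.37, 11.6 and 8.98 CPM in the Minus Whisker libraries. It had 14.2, 12.3, 13.4 and 14.2 CPM in the Activating libraries, against 14.1, 11.8, 8.95 and 12.2 CPM in the Activating Control libraries. Plus Whisker libraries lay below all Minus Whisker libraries, and the activation groups overlapped. The whisker effect was -0.83 ± 0.18 (adjusted p = 0.0569 in the paired fit), the activation effect 0.20 ± 0.16 and the difference -1.03 ± 0.24, with an interval of -1.54 to -0.53 (adjusted p = 1.00). Lcat, a cholesterol esterifying enzyme, had a whisker effect of -0.80 ± 0.19 and an activation effect of 0.16 ± 0.17, and Rassf2, a Ras-association protein, -1.04 ± 0.30 for whisker and 0.50 ± 0.26 for activation. In both genes Minus Whisker 2 and 3 were the highest of the 14 libraries, as they were for astrocyte RNA. With both left out, which keeps 1 Minus Whisker library, the difference was -0.42 for Lcat, against -0.96 with all libraries, and -0.91 for Rassf2, against -1.55. That of Rnd3 was -0.86 without them.

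Lcn2 (ENSMUSG00000026822), lipocalin 2, an iron-binding acute-phase protein, had the largest whisker effect among the named genes. It had 88.5, 56.7 and 72.7 CPM in the Plus Whisker libraries, against 17.7, 10.6 and 4.56 CPM in the Minus Whisker libraries. It had 6.74, 15.5, 1.47 and 1.96 CPM in the Activating libraries, against 1.58, 3.61, 5.24 and 8.11 CPM in the Activating Control libraries. Plus Whisker libraries lay above all Minus Whisker libraries, and the activation groups overlapped. The difference of 2.65 ± 0.83 had a wide interval of 0.89 to 4.41 and did not pass (adjusted p = 1.00, and 0.378 in the paired fit).

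The glycolysis and hypoxia list held 5 genes that fell for the average in the paired fit (7.66% of all tested genes fell). Of its 20 tested members, 14 were below 0 for whisker and 10 for activation, with medians of -0.17 for whisker and 0.02 for activation. Over all tested genes 35.6% were above 0 for whisker, and with RLE scaling 12 members and with TMM scaling 13 were below 0. None rose in the paired fit, and with TMM scaling in that fit 5 fell as well. Pdk1 (ENSMUSG00000006494), a kinase that keeps pyruvate out of mitochondria, had 14.2, 8.88 and 10.03 CPM in the Plus Whisker libraries, against 21.4, 18.3 and 23.5 CPM in the Minus Whisker libraries. It had 12.2, 20.3, 13.3 and 11.9 CPM in the Activating libraries, against 16.4, 18.1, 17.5 and 11.6 CPM in the Activating Control libraries. The whisker groups lay apart and the activation groups overlapped. Its whisker effect was -0.89 ± 0.22 (adjusted p = 0.0491 in the paired fit), its activation effect -0.15 ± 0.19 and its difference -0.75 ± 0.29 (adjusted p = 1.00). Pfkl, a phosphofructokinase, had effects of -0.45 for whisker and -0.20 for activation, Pkm2, pyruvate kinase, -0.39 for whisker and -0.06 for activation, Tpi1, triosephosphate isomerase, -0.47 for whisker and -0.06 for activation, and Eno1, an enolase, -0.52 for whisker and -0.27 for activation. In each of these 5 genes every Plus Whisker library lay below every Minus Whisker library. They were chosen by a call in the same libraries, so this is a description. How many of all tested genes lay apart in the whisker experiment was not counted.

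Of the 44 genes called for the whisker effect in the paired fit, 6 had an activation effect of the opposite sign, and all of them fell with whisker exploration: Adrbk2, Ephb3, Fads2, Kif1a, Sorcs2 and Sox2, named after their values were seen. Sox2, a transcription factor of neural stem cells and astrocytes, had 0.902, 2.33 and 0.695 CPM in the Plus Whisker libraries, against 3.03, 13.1 and 6.07 CPM in the Minus Whisker libraries. It had 2.88, 8.13, 3.17 and 9.42 CPM in the Activating libraries, against 3.1, 2.45, 3.85 and 5.52 CPM in the Activating Control libraries. Plus Whisker libraries lay below all Minus Whisker libraries, among which Minus Whisker 2 was highest, and the difference was -2.19 ± 0.61 (adjusted p = 1.00). It passed with DESeq2 (adjusted p = 0.0471) and without Minus Whisker 1 (0.0392), and was -1.32 with Minus Whisker 2 and 3 both left out. Kif1a, an axonal transport motor, had a whisker effect of -1.71 and Fads2, a fatty acid desaturase, one of -1.46, with activation effects of 0.21 for Kif1a and 0.08 for Fads2. Kif1a had 1.72, 2.94 and 3.37 CPM in the Plus Whisker libraries, against 3.68, 15.4 and 20.5 CPM in the Minus Whisker libraries, and Fads2 had 2.09, 3.201 and 3.31 CPM in the Plus Whisker libraries, against 4.44, 18.04 and 10.3 CPM in the Minus Whisker libraries. Minus Whisker 2 and 3 were the highest of these libraries in both genes, as for astrocyte markers. With both left out the difference was -0.59 for Kif1a, against -1.93 with all libraries, and -0.59 for Fads2, against -1.55. Without Minus Whisker 1 the differences of Kif1a, Fads2, Sorcs2 and Adrbk2 were called as well (adjusted p of 0.0171 for Kif1a, 0.0353 for Fads2, 0.0168 for Sorcs2 and 0.0266 for Adrbk2). The part of astrocyte RNA in these results was not tested.

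Only 7 genes (0.0515%) had treated libraries beyond all controls in both experiments in opposite directions, and all 7 were lower with whisker exploration and higher with activation. They were Sec14l2, Rundc3a, Adamts5, Thbs3, Ccna2, A330021E22Rik and Tsku, with mean levels of 2.52 CPM or less. Adamts5, a protease of the proteoglycan matrix, had 0.582, 1.36 and 1.34 CPM in the Plus Whisker libraries, against 1.59, 4.25 and 1.38 CPM in the Minus Whisker libraries. It had 1.86, 1.53, 1.47 and 3.26 CPM in the Activating libraries, against 0.924, 0.481, 1.25 and 0.755 CPM in the Activating Control libraries. With all libraries no difference of these 7 passed in either limma fit, with an adjusted p of 1.00 without the block and at least 0.316 in the paired fit. Without Minus Whisker 1 that of Sec14l2 was called (-1.90, adjusted p = 0.0141).

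**Figure D3:**
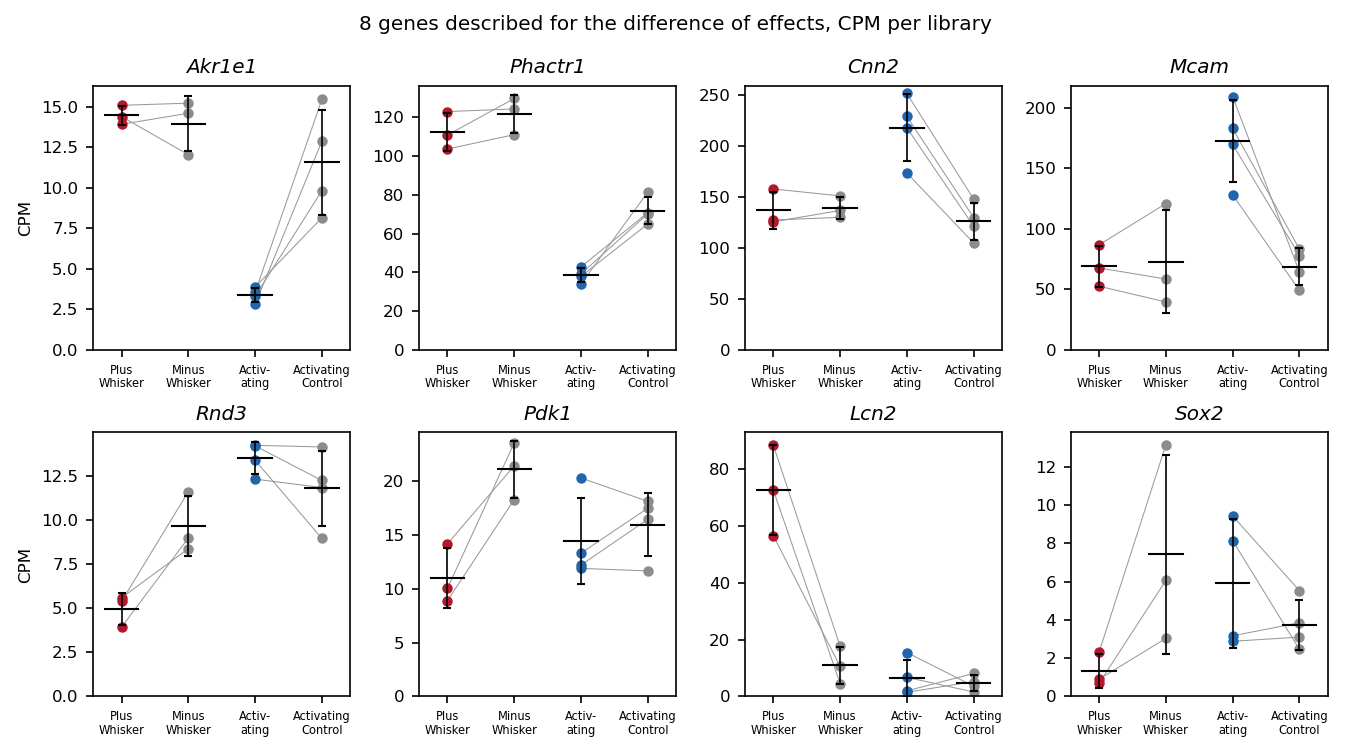
CPM per library on the y axis for 8 genes in Plus Whisker (red), Minus Whisker (grey), Activating (blue) and Activating Control (grey) libraries; thin lines join libraries of the same replicate number and bars give mean and SD. Akr1e1, Phactr1, Cnn2 and Mcam separate in the activation experiment, and Rnd3, Pdk1, Lcn2 and Sox2 in the whisker experiment.

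Tubulins and actin-linked genes held the most calls of any list for the average, 11 of 29, against 2.77% of all tested genes. This list and the others were chosen with earlier results of these data known. Their counts beside the share of all genes are therefore descriptions and no test. Of the 29, 20 were above 0 for whisker and 28 for activation, with medians of 0.25 for whisker and 0.53 for activation. For the average 10 rose and 1 fell, and in the paired fit 17 rose and 1 fell. Fyn (ENSMUSG00000019843), a Src-family kinase at adhesions, had 158, 188 and 163 CPM in the Plus Whisker libraries, against 111, 106 and 97.4 CPM in the Minus Whisker libraries. It had 194, 188, 178 and 232 CPM in the Activating libraries, against 103, 128, 87.7 and 127 CPM in the Activating Control libraries. The groups lay apart in both experiments, and the average effect was 0.76 ± 0.09 (adjusted p = 0.00265). Anxa2, a membrane-binding annexin, had effects of 0.51 ± 0.16 for whisker and 0.73 ± 0.14 for activation, and Msn, the membrane-to-actin linker moesin, 0.38 ± 0.12 for whisker and 0.54 ± 0.10 for activation. Tubb2a, a beta-tubulin, had 0.52 ± 0.16 for whisker and 0.73 ± 0.14 for activation.

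Within the same list the difference of effects was below 0 in 27 of 29 members and above 0 in 2, with a median of -0.21. None of these differences was called. Over all tested genes 37.9% had a difference above 0. Tubb6, another beta-tubulin, had 23.7, 30.2 and 22.1 CPM in the Plus Whisker libraries, against 19.97, 14.6 and 11.3 CPM in the Minus Whisker libraries. It had 82.8, 63.4, 34.4 and 45.7 CPM in the Activating libraries, against 11.9, 30.8, 11.8 and 12.8 CPM in the Activating Control libraries. Activating Control 2 stood above the other controls, yet treated libraries lay above all controls in both experiments, and the difference was -1.02 ± 0.46 (adjusted p = 1.00). Pdlim5, a scaffold of actin fibres, had effects of 0.20 ± 0.11 for whisker and 0.71 ± 0.09 for activation, and Pls3, an actin bundler, 0.27 ± 0.10 for whisker and 0.64 ± 0.09 for activation. The 1 member that fell was Myof, myoferlin, a membrane fusion protein related to dysferlin, with -0.32 ± 0.14 for whisker and -0.83 ± 0.12 for activation. Dysf and Myof thus moved in opposite directions, Dysf up and Myof down for the average.

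Of 18 tested genes of caveolae and transcytosis, 4 rose for the average and none fell, against 1.33% of all tested genes that rose. Of the 18, 9 were above 0 for whisker and 13 for activation. In the paired fit 5 rose and 1, the transferrin receptor Tfrc, fell. Ehd2, an ATPase at the neck of caveolae, had 439, 576 and 523 CPM in the Plus Whisker libraries, against 329, 399 and 369.7 CPM in the Minus Whisker libraries. It had 679, 504, 612 and 694 CPM in the Activating libraries, against 471, 408, 336 and 453 CPM in the Activating Control libraries. Neither pair of groups overlapped, and the average effect was 0.53 ± 0.10. Ehd4 had an average effect of 0.38 ± 0.08, Ehd1 0.38 ± 0.09 and the clathrin light chain Cltb 0.34 ± 0.08. Of 14 refits without 1 library, the call of Ehd2 was lost in 1, that of Ehd4 in 2, that of Ehd1 in 5 and that of Cltb in 9.

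Heat shock chaperones held 12 genes that rose for the average in the paired fit, of 20 tested, against 4.69% of all tested genes. The list includes Hspd1 and Hspe1, which encode mitochondrial chaperonins, and both are among the 12. Of the 20 chaperones, 16 were above 0 for whisker and 19 for activation, with medians of 0.41 for whisker and 0.32 for activation. The average was called for 1 member without the block, Hsp90aa1, and for 12 in the paired fit, none of them lower. Hsph1 (ENSMUSG00000029657), a nucleotide exchange factor for Hsp70, had 107, 88.1 and 108 CPM in the Plus Whisker libraries, against 47.1, 46.5 and 34.3 CPM in the Minus Whisker libraries. It had 69.7, 101, 120.2 and 199.9 CPM in the Activating libraries, against 22.7, 91.5, 48.1 and 125 CPM in the Activating Control libraries. The whisker groups lay apart, while the activation groups overlapped and every Activating library exceeded the control of its own number. Its effects were 1.24 ± 0.47 for whisker and 0.92 ± 0.40 for activation (average adjusted p = 0.073, and 0.00252 in the paired fit).

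Chordc1, an Hsp90 co-chaperone, had 77.9, 77.3 and 101 CPM in the Plus Whisker libraries, against 49.7, 57.6 and 61.7 CPM in the Minus Whisker libraries. It had 58.2, 50.9, 64.03 and 72.3 CPM in the Activating libraries, against 47.6, 34.3, 45.1 and 70.3 CPM in the Activating Control libraries. Each library lay above the control of its number, and the average effect was 0.47 ± 0.13 (adjusted p = 0.00354 in the paired fit). Hspb1, the small heat shock protein Hsp27, had 525, 515 and 327 CPM in the Plus Whisker libraries, against 335, 399 and 229.5 CPM in the Minus Whisker libraries. It had 382, 539, 600.2 and 565 CPM in the Activating libraries, against 249, 480.0, 361 and 460.1 CPM in the Activating Control libraries. The groups overlapped in both experiments, and the paired call (adjusted p = 0.00372) rested on 7 of 7 pairs that moved up.

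The promoters of Chordc1 and Hspb1 (RefSeq, GRCm38.p6, chr9:18292017-18292316, plus strand and chr5:135887669-135887968, plus strand) are shown because 12 of 20 chaperone genes rose for the average in the paired fit. Capitals mark GAANNTTC, an inverted pair of the core unit of the element read by heat shock factors, which reads the same on both strands; the 2 matches in Chordc1 do not overlap.
Chordc1: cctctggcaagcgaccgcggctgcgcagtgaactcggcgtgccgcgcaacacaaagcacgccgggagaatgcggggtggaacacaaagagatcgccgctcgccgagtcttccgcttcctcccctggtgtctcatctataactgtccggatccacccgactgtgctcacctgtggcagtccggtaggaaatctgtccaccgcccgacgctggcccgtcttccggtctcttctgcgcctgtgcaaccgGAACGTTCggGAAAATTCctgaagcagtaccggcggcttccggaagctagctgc
Hspb1: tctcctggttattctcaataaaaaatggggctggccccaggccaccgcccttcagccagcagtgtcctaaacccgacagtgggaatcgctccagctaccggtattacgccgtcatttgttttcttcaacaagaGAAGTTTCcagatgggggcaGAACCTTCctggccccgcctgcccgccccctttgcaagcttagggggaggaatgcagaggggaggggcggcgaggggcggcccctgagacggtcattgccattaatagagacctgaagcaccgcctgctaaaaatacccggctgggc
Of the 12 chaperone genes called in the paired fit, 9 had a promoter in the table and 6 of these held GAANNTTC, namely Chordc1, Dnaja1, Hspb1, Hspd1, Hspe1 and Hsph1. Of the 15 tested chaperones with a promoter 9 held it, against 7.89% of 32544 promoters, and 0 of 13 like-size and 0 of 10 difference genes held it. The count is a description, since these chaperones are known heat shock factor targets.

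Of 22 tested genes of the unfolded protein response of the endoplasmic reticulum, 18 were above 0 for whisker and 20 for activation, 4 rose for the average and 7 in the paired fit, and none fell in either. Of all tested genes 1.33% rose without the block and 4.69% in the paired fit. Hsp90b1, the reticulum form of Hsp90, had 483, 465 and 463 CPM in the Plus Whisker libraries, against 362, 373 and 355 CPM in the Minus Whisker libraries. It had 338, 328, 404 and 430.2 CPM in the Activating libraries, against 262, 313, 309 and 314 CPM in the Activating Control libraries. The groups lay apart in both experiments, and the effects were 0.37 ± 0.11 for whisker and 0.32 ± 0.10 for activation. Canx, calnexin, had 0.24 ± 0.08 for whisker and 0.33 ± 0.07 for activation, and Xbp1, a transcription factor of the unfolded protein response, 0.43 ± 0.12 for whisker and 0.30 ± 0.10 for activation. All 4 called members, the disulfide isomerase Pdia3 included, met the like-size bound. Their average effects were 0.29 for Canx, 0.31 for Pdia3, 0.34 for Hsp90b1 and 0.37 for Xbp1, each smaller than that bound. For these genes the bound therefore cannot show that the whisker and activation effects were near equal.

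Over all tested genes 2.77% were called for the average without the block, and 12.4% in the paired fit. Of 28 tested basement membrane and integrin genes 4 rose for the average and none fell, and in the paired fit 6 rose and 2 fell. Nid1, nidogen 1, had effects of 0.45 ± 0.14 for whisker and 0.43 ± 0.12 for activation, Itgb1, integrin beta 1, 0.29 ± 0.10 for whisker and 0.36 ± 0.09 for activation, and Sparc, a collagen-binding protein, 0.28 ± 0.14 for whisker and 0.49 ± 0.12 for activation. Adamts9, a versican-cleaving protease, had 34.4, 50.99 and 65.1 CPM in the Plus Whisker libraries, against 27.6, 20.7 and 12.7 CPM in the Minus Whisker libraries. It had 97.6, 186, 37.7 and 66.1 CPM in the Activating libraries, against 11.7, 28.3, 20.7 and 21.8 CPM in the Activating Control libraries. Treated libraries lay above all controls in both experiments, with a spread of 37.7 to 186 CPM among Activating libraries, and the difference was -0.73 ± 0.60 (adjusted p = 1.00).

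Angpt2, a ligand of the Tie2 receptor released by sprouting vessels, had 72.96, 96.4 and 64.5 CPM in the Plus Whisker libraries, against 44.6, 29.5 and 24.9 CPM in the Minus Whisker libraries. It had 133, 120.4, 38.3 and 55.5 CPM in the Activating libraries, against 48.6, 40.7, 26.7 and 49.04 CPM in the Activating Control libraries. The whisker groups lay apart and the activation groups overlapped; the average effect was 1.08 ± 0.26 (adjusted p = 0.0378), a call lost in 9 of 14 refits. Pdgfa, a growth factor for mesenchymal cells, had effects of 0.43 ± 0.20 for whisker and 0.93 ± 0.17 for activation. With Igf1r, which fell, these made 2 rising and 1 falling genes among 28 tested angiogenesis and tip cell genes, and with RLE or TMM scaling Igf1r was not called for the average.

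Vwf (ENSMUSG00000001930), the clotting protein that endothelium stores in granules, had 578, 662 and 616 CPM in the Plus Whisker libraries, against 703, 808 and 739 CPM in the Minus Whisker libraries. It had 475, 417, 417 and 360.2 CPM in the Activating libraries, against 658, 716, 647 and 611 CPM in the Activating Control libraries. Treated libraries lay below all controls in both experiments. Its whisker effect was -0.28 ± 0.11, its activation effect -0.66 ± 0.10 and its difference 0.38 ± 0.15 (adjusted p = 1.00), and F5, coagulation factor V, had effects of -0.28 ± 0.14 for whisker and -0.66 ± 0.12 for activation. Of 11 tested haemostasis genes, 1 rose for the average without the block (Thbd) and 2 fell (Vwf and F5). In the paired fit 2 rose and 2 fell. Tgfbr3, betaglycan, a co-receptor for TGF-beta and BMP ligands, had -0.37 ± 0.11 for whisker and -0.69 ± 0.09 for activation. Tgfbr3 was the 1 of 22 tested TGF-beta and BMP genes called for the average without the block. In the paired fit 1 of the 22 rose and 3 fell. Over all tested genes 1.33% rose and 1.44% fell without the block, and 4.69% rose and 7.66% fell in the paired fit.

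Of 3 clock-driven PAR bZIP factors 2 fell for the average without the block, and of 16 tested core clock genes 1 rose. Over all tested genes 1.33% rose and 1.44% fell. Tef, a PAR bZIP factor, one of the transcription factors driven by the clock, had 65.7, 58.5 and 91.9 CPM in the Plus Whisker libraries, against 86.5, 113 and 114 CPM in the Minus Whisker libraries. It had 43.9, 47.4, 46.5 and 44.1 CPM in the Activating libraries, against 86.3, 118, 82.6 and 66.2 CPM in the Activating Control libraries. Activating libraries lay below all controls and the whisker groups overlapped, with an average effect of -0.73 ± 0.12 (adjusted p = 0.0111). Dbp had effects of -0.90 ± 0.33 for whisker and -0.92 ± 0.29 for activation, and its average was called (adjusted p = 0.0396) but lost the call in 10 of 14 refits. Hlf, the third factor, fell with activation in the paired fit (-0.80, adjusted p = 0.0213), with a whisker effect of -0.22. Arntl, which encodes the clock activator BMAL1, rose for the average (0.35 ± 0.08, adjusted p = 0.0369), a call lost in 9 of 14 refits. Hours of collection were not given in the labels used here.

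Other lists leaned unequally, without called differences, and the whisker lean depended on scaling. Over all tested genes 35.6% were above 0 for whisker and 48.7% for activation. The median whisker effect of all tested genes was -0.07, and -0.01 with TMM scaling. For the average 1.33% of all tested genes rose and 1.44% fell without the block. In the paired fit 4.69% rose, and with TMM scaling in that fit 855 of 13587 genes did. Of 26 ribosome biogenesis genes, 14 were above 0 for whisker and 26 for activation, with medians of 0.03 for whisker and 0.33 for activation. None was called for the average without the block, and 4 rose in the paired fit, or 10 with TMM scaling, under which 20 were above 0 for whisker. Bysl, a factor of small subunit assembly, had effects of 0.14 ± 0.15 for whisker and 0.58 ± 0.13 for activation. Of 22 tested sterol synthesis genes, 5 were above 0 for whisker and 17 for activation, and with TMM scaling 13 and 18. The 1 called for the average was Mvk, mevalonate kinase, which fell (-0.71 ± 0.19 for whisker and -0.58 ± 0.17 for activation). Of 15 tested cell cycle genes 2 rose for the average. Ccnd1, the G1 cyclin D1, had effects of 0.40 ± 0.21 for whisker and 1.00 ± 0.18 for activation, and Ccnd3 0.20 ± 0.10 for whisker and 0.46 ± 0.09 for activation.

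Barrier and signalling lists held few calls without the block, where 2.77% of all tested genes were called. At that share short lists would hold few calls in any case, so these counts do not set the lists apart. None of 7 tested efflux pumps, 23 solute carriers of the barrier, 17 junction genes, 14 Notch genes, 27 immediate early genes, 24 glucocorticoid response genes, 24 interferon and antigen presentation genes, 37 oxidative phosphorylation genes, 16 leukocyte adhesion genes or 10 metallothionein and zinc genes was called for the average without the block. In the paired fit 2 of 7 efflux pumps and 5 of 23 solute carriers fell and 2 of 17 junction genes rose. Of all tested genes 4.69% rose and 7.66% fell in that fit. In that fit 2 glucocorticoid response genes rose and 1 fell, 2 interferon genes rose, 1 immediate early gene rose and 1 fell, 1 leukocyte adhesion gene rose, and 1 metallothionein or zinc gene rose and 1 fell. No Notch or oxidative phosphorylation gene was called in it. With TMM scaling 1 pump and 4 carriers fell. Abcb1a, the main efflux pump P-glycoprotein, had 2281, 2202 and 2457 CPM in the Plus Whisker libraries, against 2763, 2410.4 and 2779 CPM in the Minus Whisker libraries. It had 1899, 1701, 2077 and 1895 CPM in the Activating libraries, against 2333, 2192, 2707 and 2367 CPM in the Activating Control libraries. Activating libraries lay below all controls, the whisker groups overlapped, and the effects were -0.19 ± 0.13 for whisker and -0.34 ± 0.11 for activation (average adjusted p = 0.0247 in the paired fit). Of 21 tested genes of the Wnt barrier pathway 1 fell, the Wnt7 co-receptor Reck (-0.33 ± 0.08), a call lost in 10 of 14 refits. Of 16 tested flow-responsive genes 2 rose without the block, Trpv4 and Thbd, and in the paired fit 3 rose and 2 fell.

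**Figure D4:**
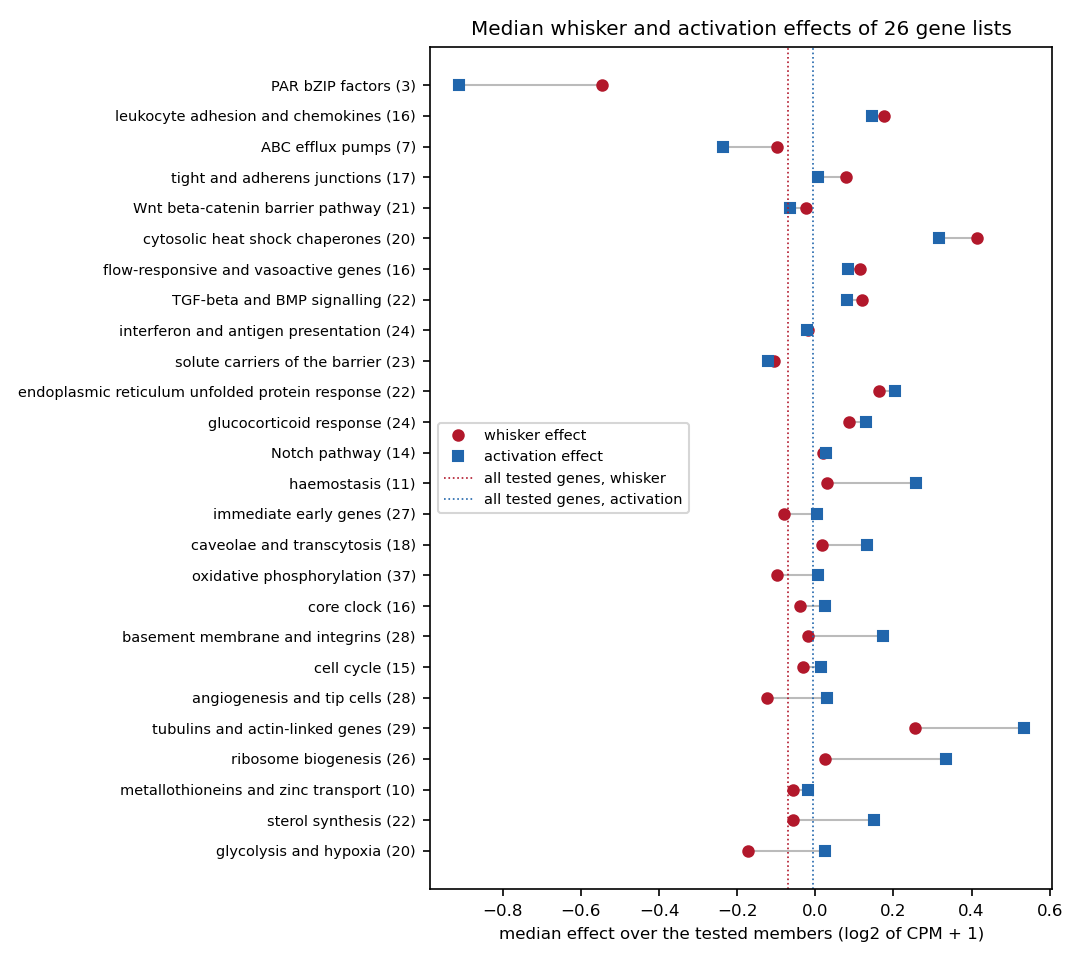
Median whisker effect (red circles) and median activation effect (blue squares) of the tested members of 26 gene lists on the x axis, as log2 differences of CPM + 1, with the number of members in brackets; dotted lines mark the medians of all tested genes. Both medians of the heat shock and the tubulin and actin-linked lists lie well above the dotted lines, and those of the PAR bZIP factors below. The heat shock list is labelled cytosolic but includes the mitochondrial Hspd1 and Hspe1.

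Astrocyte transcripts leaned in opposite directions. All 13 astrocyte markers were below 0 for whisker and above 0 for activation, with medians of -1.14 for whisker and 0.19 for activation, and none was called for any effect. Their summed level was 416.6, 451.6 and 450.9 CPM in the Plus Whisker libraries, against 385.4, 1449 and 1280 CPM in the Minus Whisker libraries. It was 354.2, 572, 382.2 and 691.9 CPM in the Activating libraries, against 325.1, 384.3, 422.4 and 554.1 CPM in the Activating Control libraries. Minus Whisker 2 and 3 were thus the highest of all 14, and Minus Whisker 1 lay near the Plus Whisker libraries. Aldoc, an aldolase that marks astrocytes, had 41.3, 45.3 and 33.8 CPM in the Plus Whisker libraries, against 38.1, 238 and 141 CPM in the Minus Whisker libraries. Slc1a3, an astrocyte glutamate transporter, had 31.9, 34.2 and 44.9 CPM in the Plus Whisker libraries, against 32.8, 147 and 129.9 CPM in the Minus Whisker libraries. In RNA from sorted cells, fewer cells of a type and less RNA per cell cannot be told apart.

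Leaving out Minus Whisker 1 changed the number of calls. Without it the difference of effects had 175 called genes, 2 higher and 173 lower, and the whisker effect 343. The 175 included Akr1e1, Phactr1, Mcam, Rnd3, Lcat, Rassf2 and Sox2. These 175 of 13553 genes tested without it had a median mean level of 4.07 CPM, against 20.8 CPM for all genes tested with 14 libraries. Called were 5 genes of the list of 13 astrocyte markers and 1 of the list of 14 oligodendrocyte markers. These lists are short, and the other called genes were not sorted by cell type. The median difference of the astrocyte markers was -1.42 with all libraries, -2.10 without Minus Whisker 1 and -0.06 with Minus Whisker 2 and 3 both left out. Smooth muscle markers behaved alike: 9 of 9 tested were below 0 for whisker and above 0 for activation, with a median difference of -0.93. Their sum in Minus Whisker 2 was 1756 CPM, against 295.2 to 867.6 CPM in the other 13 libraries, and without Minus Whisker 2 the median difference was -0.13. With Minus Whisker 2 and 3 both left out it was 1.04. The part of these cells in the whisker-side differences was not tested. In all 16 genes named for like size, the Plus Whisker libraries lay beyond all 3 Minus Whisker libraries, Minus Whisker 1 included. These genes were chosen in the same libraries, so this is a description.

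**Figure D5:**
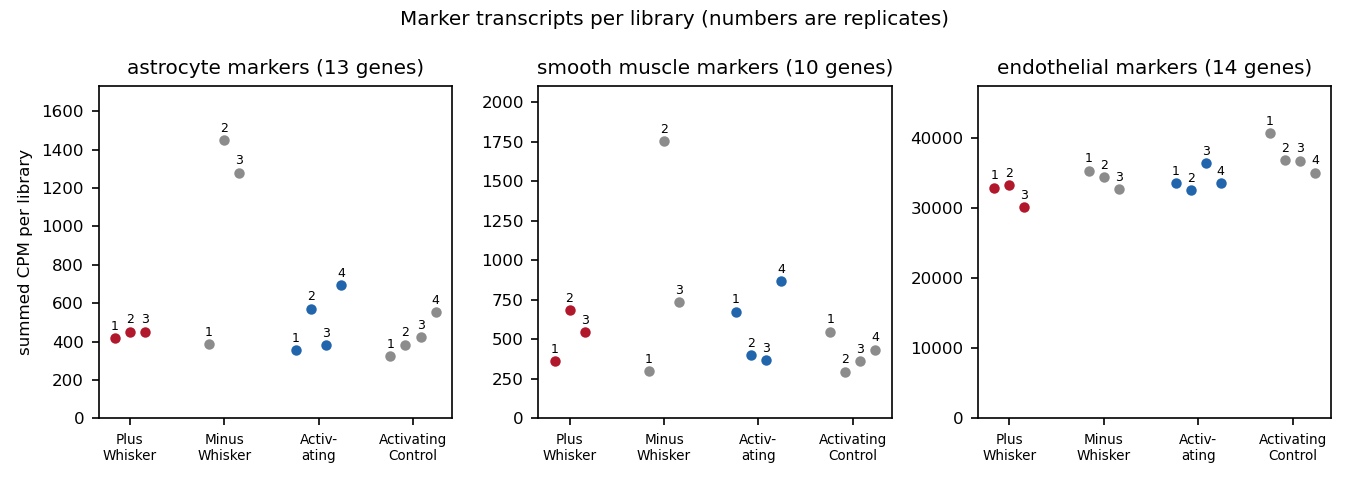
Summed CPM per library on the y axis for astrocyte, smooth muscle and endothelial marker genes in Plus Whisker (red), Minus Whisker (grey), Activating (blue) and Activating Control (grey) libraries, with replicate numbers. Astrocyte sums of Minus Whisker 2 and 3 are 1449 and 1280 CPM, above all other libraries, while endothelial sums span 30140 to 40700 CPM.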

How the data were processed

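RNA-seq of endothelial cells sorted for CD31 was analysed in 14 of 22 libraries. The deposited table holds CPM values per gene, made by the authors. Per the submitters' processing notes, their tools included HTSeq 0.6.1, SAMtools 0.1.19, TopHat2 2.0.11, DESeq2 and Bowtie2 2.2.1, with mm9 as the build. Every CPM value was a whole number of reads within 0.01 read, so reads and depth were recovered. The sources used here do not give a strand setting. Genes needed 1 CPM in at least 3 libraries. Values of log2(CPM + 1) from 4 groups were fitted with limma 3.58.1 (R 4.3.3; moderated test with a mean-variance trend, Benjamini-Hochberg adjustment, threshold 0.05). The pseudocount understates changes of low genes.

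Replicate numbers in the labels pair the libraries by the data: deviations of same-numbered libraries correlated at 0.45, 0.46 and 0.60 in the whisker experiment and at 0.37, 0.43, 0.42 and 0.29 in the activation experiment, and every library was closest to its own number. The labels do not say what a number shares or whether replicates were separate animals, so p-values measure the spread between these libraries. edgeR 4.0.16 and DESeq2 1.42.0 on recovered reads, RLE and TMM scaling, other filters and left-out libraries were alternatives, and the linear models were tested on simulated data.

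Named genes had a mean of at least 5 CPM and a unique symbol. They were those called for the difference, filled to 5 per direction by smallest p, the 8 rising and 8 falling genes of like size with the largest average effect, and list members called for the difference or average; others are said to be chosen after their values were seen. The members, the rule and the gene lists were chosen with earlier results of these data known. Promoters came from a RefSeq table on GRCm38.p6, matched by symbol, and no coordinates of the authors' build were used.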

Additional observations from a re-analysis of the deposited data

Results flagged for a closer look

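Single libraries stood apart from the rest of their group of 4 in 8 genes. Ccnd1 had 198 CPM in Activating 4, against 119 to 127 CPM in the other Activating libraries. Pdk1 had 20.3 CPM in Activating 2, against 11.9 to 13.3 CPM. Pdlim5 had 231 CPM in Activating 2, against 298 to 308 CPM. Myof had 32.0 CPM in Activating 3, against 27.7 to 28.2 CPM. Tubb6 had 30.8 CPM in Activating Control 2, against 11.8 to 12.8 CPM in the other Activating Control libraries. Hsp90b1 had 262 CPM in Activating Control 1, against 309 to 314 CPM. Lcat had 10.7 CPM in Activating Control 3, against 9.03 to 9.22 CPM. Msn had 822 CPM in Activating Control 3, against 921 to 941 CPM. The summed choroid plexus and ependymal markers had 59.68 CPM in Activating Control 2, against 8.775 to 16.61 CPM. These are 9 of 200 groups looked at, and chance marks about 1 in 20.

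The difference of effects was called for Cnn2 in the paired fit, at -0.814 on the log2 scale (adjusted p = 0.0204). It was not called without the block or with TMM scaling in the paired fit (adjusted p = 0.232). Most paired fits that left out 1 pair of libraries lost the call. In 7 genes every Plus Whisker library lay below every Minus Whisker library while every Activating library lay above every Activating Control library. The differences of effects were -1.55 for Sec14l2, -0.826 for Rundc3a, -1.32 for Adamts5, -0.73 for Thbs3, -0.765 for Ccna2, -1.11 for A330021E22Rik and -0.912 for Tsku, and none passed with all libraries in either limma fit (adjusted p of 1.00 without the block). Without Minus Whisker 1 that of Sec14l2 passed (-1.90, adjusted p = 0.0141).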

How the results depend on the processing

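Counts of called genes moved with the settings, while the 57 named genes called for the average kept its sign in every alternative. Of these, 26 kept the call in each refit without 1 library and in each planned setting with all 14 libraries, and none did with Minus Whisker 2 and 3 both left out. The replicate block gave 1 called gene for the difference, 44 for whisker, 803 for activation, 1678 for the average and 934 of like size. With block and TMM scaling these were 0, 32, 779, 1679 and 964. RLE and TMM scaling alone stayed within 1.5 times of every total, though with RLE scaling 136 genes of like size were higher, with scaling as deposited 85. Without a filter there were 2 for whisker, 71 for activation, 149 for the average and 85 of like size. With all 22 libraries in the fit there were 1 for the difference, 248 for activation, 737 for the average and 275 of like size. The activation experiment fitted alone gave 12. On recovered reads, edgeR gave 1 for the difference, and DESeq2 15 for the difference, 257 for whisker, 494 for activation, 1120 for the average and 447 of like size. edgeR with the replicate block gave 50 for whisker, 677 for activation and 1699 for the average; this and the next setting were chosen after seeing the data. Without Minus Whisker 2 and 3 there were 53 for activation, 0 for the average and 0 of like size, with 1 Minus Whisker library assumed to vary like the other groups. A bound of 0.3 in place of 0.5 left 17 of like size.

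Leaving out 1 library, or 1 pair in the paired fit, gave 0 to 243 for the difference, 0 to 441 for whisker, 29 to 600 for activation, 61 to 1712 for the average and 20 to 871 of like size. Without the block the ranges were 0 to 175 for the difference, 0 to 343 for whisker, 29 to 146 for activation, 61 to 574 for the average and 20 to 195 of like size; leaving out Minus Whisker 1 gave the highest of difference, whisker and average, Plus Whisker 2 the lowest of the average, and Activating 1 the lowest of activation (29). The cause was not tested. The part of depth was not tested; the median SE of the difference was 0.239 (0.176 with the block).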
